A study of Homo sapiens with 8 samples.

Results

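The annexins are a family of proteins that bind phospholipid membranes in the presence of calcium. The 8 family members described here, ANXA1 to ANXA7 and ANXA11, were measured in THP-1 and HL-60 cells exposed to diclofenac or to its solvent. They were taken as every probe set whose annotation gave 1 of these 8 symbols, which made 13 of the 22277 probe sets of the deposited table, and 8 of the 11963 genes represented by a probe set. The 4 groups were THP-1 cells with 100 µM diclofenac, THP-1 cells with DMSO, HL-60 cells with 100 µM diclofenac and HL-60 cells with DMSO. Every group was kept for 48 h and had 2 arrays, titled as biological replicates. Both are established lines of acute myeloid leukemia, THP-1 from a monocytic and HL-60 from a promyelocytic leukemia, and all were grown in RPMI-1640 with 10% fetal bovine serum. Diclofenac is a non-steroidal anti-inflammatory drug that inhibits the cyclooxygenases, and the series title asks how such drugs act on the death and maturation of leukemia cells.

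Annexins share a core of repeated calcium-binding folds and differ in their N-terminal tail, through which several of them bind S100 proteins. ANXA1 was found as a protein that glucocorticoids induce, and when released from myeloid cells it acts on formyl peptide receptors to limit inflammation. ANXA2 forms a complex with S100A10 at the plasma membrane, where it helps to assemble plasminogen and its activator, and it also takes part in exocytosis and membrane repair. ANXA5 binds the phosphatidylserine that dying cells expose, and ANXA6 and ANXA7 act in membrane traffic and calcium handling. The family was chosen by its measured intensities and diclofenac changes in the 4 groups of these same arrays. The members' values are therefore a description, and nothing is read from how many of them passed the test.

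Before the results, 1 array has to be set apart. THP-1 DMSO replicate 2 had a median intensity of 241.2, against 109.6 to 150.3 on the other 7 arrays. Background, set on each array at the 95th percentile of 27 controls for bacterial genes that human cells lack, was 238.6 on this array, against 33.23 to 60.2. The share of probe sets above it was 50.32% there and 66.36% to 72.14% elsewhere, and the correlation with its fellow replicate was 0.898 across probe sets, while the other 3 pairs reached 0.977 to 0.984. THP-1 changes given for a gene's representative probe set rest on this pair. For single annexins and genes of the related lists, values without replicate 2 stand beside them. Marker genes did not settle the identity of the lines, which are named as labelled, since markers of 1 list went different ways. The monocyte receptor CD14 was above background only on THP-1 arrays, at 310.5 to 332.9 with diclofenac and 45.2 to 55.6 with DMSO, where 1 of 2 arrays passed. The promyelocyte enzyme MPO was at 170.6 to 235.6 in THP-1, against 57.8 to 61.2 in HL-60 with diclofenac and 40.6 to 41.7 in HL-60 with DMSO, where 0 of 2 arrays passed. Of the same list, AZU1 had 7212.9 to 9350.6 in THP-1, against 1177.8 to 1622.3 in HL-60, and PRTN3 was higher in THP-1 as well. CTSG had 7769.1 to 8281.5 in THP-1 with diclofenac and 8333.8 to 13192.1 with DMSO, against 11412.3 to 14181.8 in HL-60. MEIS1, a gene of MLL-rearranged leukemia, the class of THP-1, had 237.5 to 383.8 in THP-1, against 635.3 to 684.3 in HL-60. The part of these markers in the results was not tested. In bulk RNA, fewer cells of a type and less RNA per cell cannot be told apart.

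Levels are given as the deposited intensity, a linear value scaled to 1 mean per array. Changes are differences of log2(intensity + 50) after quantile normalization, with the moderated standard error (SE) of limma, a linear model fitted over the 22215 probe sets that were no controls. A gene counts as called where its Benjamini-Hochberg adjusted p is at most 0.05. Each gene is represented by its brightest probe set, and intensities of different probe sets are not compared with each other. With 2 arrays a group, the number of arrays limits the precision, and p-values measure the spread between these arrays.

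ANXA1 had the largest diclofenac change of the family in THP-1, 1.49 ± 0.10 on the log2 scale (SE, n = 2 arrays a group), and ANXA2 had 0.44 ± 0.09. In HL-60 the 8 changes lay between -0.32 for ANXA2 and 0.18 for ANXA4. ANXA4, ANXA5, ANXA6, ANXA7 and ANXA11 had changes between -0.19 and 0.18 in both lines, and ANXA3 was above background on 1 of 8 arrays. Between the lines, ANXA2, ANXA6 and ANXA7 were lower in THP-1 than in HL-60 under either treatment, and ANXA1 was lower in THP-1 with DMSO.

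**Figure D1:**
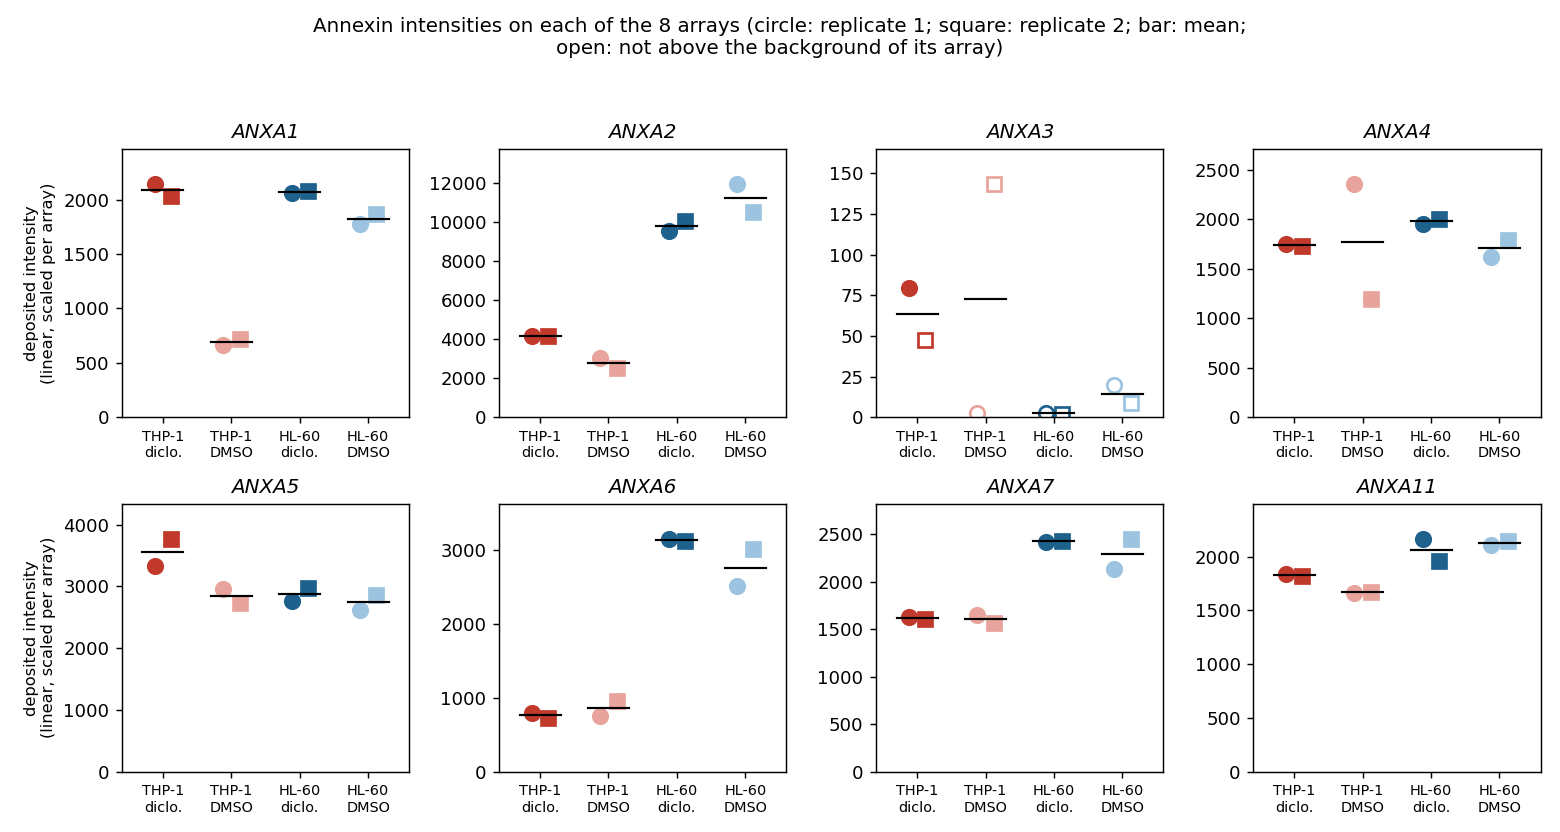
Deposited intensity (linear, scaled per array) of the representative probe set of each annexin gene on the 8 arrays, by group, with circles for replicate 1, squares for replicate 2, bars for group means and open symbols for values not above the background of their array. The THP-1 DMSO arrays of ANXA1, at 665.6 and 720.6, lie below all 6 others, and ANXA2 and ANXA6 are lower on the 4 THP-1 arrays than on the 4 HL-60 arrays.

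The promoters of ANXA1 and ANXA2 are shown because these 2 members had both diclofenac arrays above both DMSO arrays in THP-1 before and after normalization. The 250 bases before each start are from RefSeq (GRCh38.p14), 5′ to 3′ on the strand of the gene, and capitals mark the motifs TATAAA and TGANTCA. The stretch of ANXA1 is chr9:73151615-73151864 on the plus strand, and that of ANXA2 is chr15:60397987-60398236 on the minus strand.
ANXA1: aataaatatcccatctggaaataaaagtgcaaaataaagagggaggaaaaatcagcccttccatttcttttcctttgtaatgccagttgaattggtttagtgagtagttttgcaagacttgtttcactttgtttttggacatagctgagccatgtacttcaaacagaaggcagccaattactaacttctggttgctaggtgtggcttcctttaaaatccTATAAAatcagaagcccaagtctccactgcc
ANXA2: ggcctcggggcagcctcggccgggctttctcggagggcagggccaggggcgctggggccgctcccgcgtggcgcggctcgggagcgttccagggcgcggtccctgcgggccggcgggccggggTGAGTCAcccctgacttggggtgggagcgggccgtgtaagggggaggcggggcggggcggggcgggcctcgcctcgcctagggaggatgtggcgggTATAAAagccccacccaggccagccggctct

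All 8 members matched a RefSeq window of 300 bases, 250 before the start and 50 after it, which was searched on both strands for motifs chosen with the results known. The TATA box, TATAAA, began at position -31 from the start in ANXA1 and in ANXA2 and was in no other member's window, and 11.5% of 35116 promoters held it. TGANTCA, the site of the transcription factor AP-1, was in ANXA2 alone, at -127, and in 7.71% of all promoters. The cAMP response element TGACGTCA was in none of the 8 and in 1.85% of all. TTGCNNAA, a core of C/EBP sites, was in ANXA1 alone, at -143, and in 10.5% of all, and TGTTCT, the half-site of the glucocorticoid receptor, was in ANXA11 alone and in 14.8% of all. GGGCGG, the GC box, occurred 3 times each in ANXA2, ANXA4 and ANXA7 and 1 time in ANXA5, and 45% of promoters held it. The GC boxes of ANXA2 overlap one another, and no other matches in the members overlap. CCAAT occurred 2 times in ANXA1 and 1 time each in ANXA7 and ANXA11, and 34.6% of promoters held it. The 2 promoters differed in composition: the ANXA1 window had 37.7% G and C and 0 CpG dinucleotides, and the ANXA2 window 76% and 32, where the median promoter had 58.7% G and C. A match is a run of letters, not a measured binding site.

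ANXA1, the ligand of formyl peptide receptors, had an intensity of 2143.4 and 2030.3 on the THP-1 diclofenac arrays and of 665.6 and 720.6 on the THP-1 DMSO arrays. The groups did not overlap, and the difference was 2.8-fold (log2 1.49 ± 0.10), or 1.55 without THP-1 DMSO replicate 2. In HL-60, ANXA1 had 2059.3 and 2079.8 with diclofenac and 1772.2 and 1868.8 with DMSO, a change of 0.15 ± 0.10 with no overlap. Ordered by level, THP-1 with diclofenac and HL-60 with diclofenac came highest and overlapped each other, HL-60 with DMSO followed, and THP-1 with DMSO was lowest. The difference between the changes of the lines, THP-1 minus HL-60, was 1.34 ± 0.14, and it passed the test only where THP-1 DMSO replicate 1 or replicate 2 was left out (1.40 without replicate 2). Of all probe sets, 18.2% passed without replicate 1 and 0.018% without replicate 2.

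In THP-1, limma called 1 of the 8 annexin genes upward with diclofenac, ANXA1, and 0 downward, where 0.159% of all genes were called upward. Without THP-1 diclofenac replicate 1 the change was 1.44, and without replicate 2 it was 1.52. The call was lost in both cases, where hardly any probe set of the whole table passed. It was also lost with median centring, without the intensity trend and with each line fitted alone, where 0 of 22215 probe sets passed. The change of ANXA1 lay between 1.44 and 1.88 in all 21 alternatives. After normalization, 2 members had both diclofenac arrays above both DMSO arrays (ANXA1 and ANXA2), against 19.4% of genes, and 1 had both below (ANXA7), against 21.2%. On the deposited scale the numbers were 4 (ANXA5 and ANXA11 as well), against 14.5% of genes, and 0, against 20.8%. The median change of the 8 members was 0.08, beside -0.01 over all genes.

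ANXA2, the partner of S100A10, had 4138.1 and 4161.9 on the THP-1 diclofenac arrays, against 3012 and 2499.7 on the THP-1 DMSO arrays, a change of 0.44 ± 0.09 (0.49 without THP-1 DMSO replicate 2). In HL-60 it had 9532.9 and 10016.2 with diclofenac, against 11926.1 and 10481 with DMSO, a change of -0.32 ± 0.09. The groups overlapped in neither line, and the directions were opposite. Neither change was called, nor was the difference between them, 0.76 ± 0.13. When THP-1 DMSO replicate 1 was left out, the THP-1 change (0.39) and the difference (0.71) passed, but so did 31% of all probe sets for that change and 18.2% for that difference. Neither changed sign in the 21 alternatives, with ranges of 0.38 to 0.94 in THP-1 and -0.44 to -0.03 in HL-60.

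The other probe sets of ANXA2 gave near-equal values, 0.40 and 0.45 in THP-1 and -0.34 and -0.28 in HL-60, and correlated with the representative at 0.999 and 0.998 over the 8 arrays. All 3 are of the kind that may bind several transcripts, so signal from the near-identical ANXA2 pseudogenes cannot be told apart from ANXA2 itself. The probe set annotated to the pseudogene ANXA2P2, of the same kind, had 1691.6 and 1651.4 on the THP-1 diclofenac arrays, against 637.7 and 629.1 on the THP-1 DMSO arrays. Its change in THP-1 was 1.32 ± 0.20 (1.28 without THP-1 DMSO replicate 2) at a limma adjusted p of 0.0703, and in HL-60 it was 0.16 ± 0.20.

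**Figure D2:**
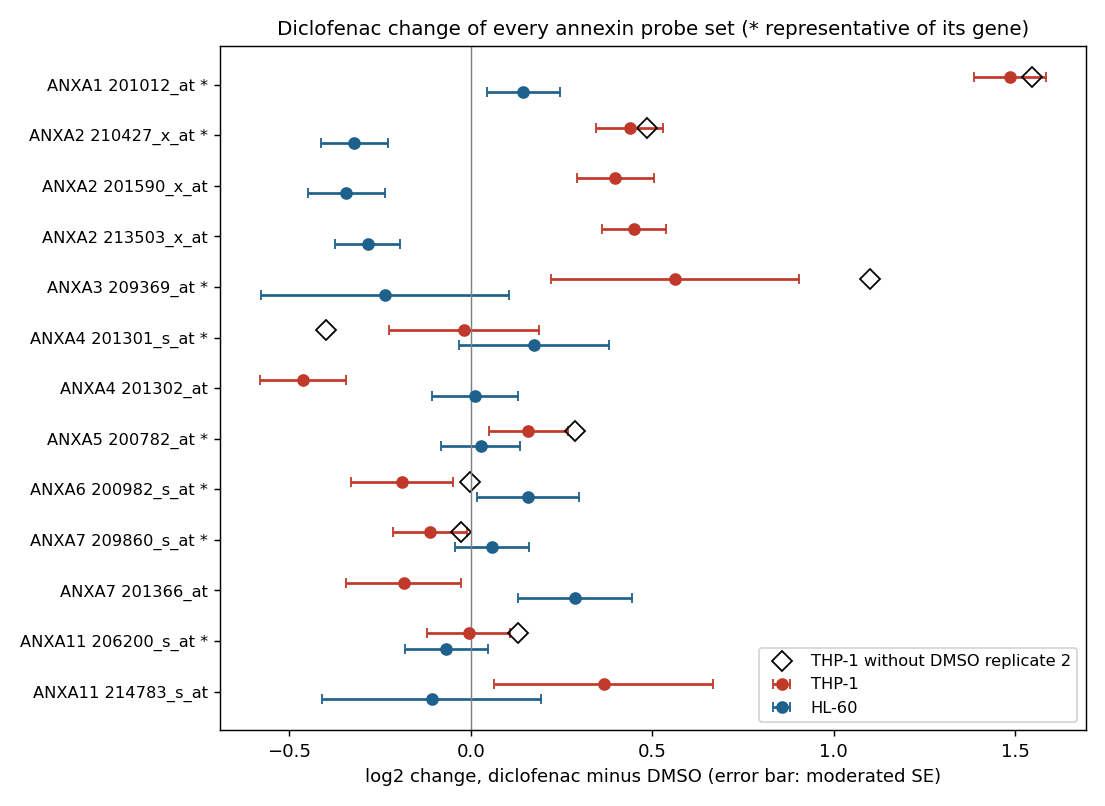
Diclofenac change (log2, diclofenac minus DMSO) of all 13 annexin probe sets in both lines, with moderated SE as error bars, a star for the representative of each gene and open diamonds for THP-1 without DMSO replicate 2. ANXA1 stands at 1.49 in THP-1 and 0.15 in HL-60, and the 3 probe sets of ANXA2 lie at 0.40 to 0.45 in THP-1 and -0.34 to -0.28 in HL-60.

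ANXA5, the phosphatidylserine-binding annexin, had 3325.9 and 3770.8 on the THP-1 diclofenac arrays, against 2955 and 2724.3 on the THP-1 DMSO arrays. These intensities did not overlap, but the normalized values did, and the change was 0.16 (0.29 without THP-1 DMSO replicate 2). In HL-60 it had 2760.5 and 2978.1 with diclofenac, against 2619.7 and 2864 with DMSO, which overlapped, at a change of 0.03. ANXA5 was the steadiest member above background across the 8 arrays after ANXA11, with a range of 0.42 log2 units, against 0.40 for ANXA11.

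ANXA6 is a large annexin with a doubled core that acts in endosome and cholesterol traffic. It had 797.7 and 733.1 with diclofenac in THP-1, against 752.9 and 957.3 with DMSO, which overlapped at a change of -0.19 ± 0.14 (0.00 without THP-1 DMSO replicate 2). In HL-60 it had 3147.4 and 3113.1 with diclofenac, against 2504.5 and 3011.2 with DMSO, with no overlap and a change of 0.16 ± 0.14. Its step was between the lines and not between the treatments: the highest THP-1 array had 957.3 and the lowest HL-60 array 2504.5.

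ANXA4, an annexin of secretory and epithelial membranes, had 1746.8 and 1724.8 with diclofenac in THP-1, against 2354.3 and 1191.6 with DMSO. The DMSO arrays lay on both sides of the diclofenac arrays, and the change of -0.02 ± 0.21 became -0.40 without replicate 2. In HL-60 it had 1955.9 and 2003.8 with diclofenac, against 1622.3 and 1792.6 with DMSO, a change of 0.18 with no overlap. The second probe set of ANXA4 had changes of -0.46 in THP-1 and 0.01 in HL-60, and its correlation with the first was -0.05 over the 8 arrays. Between the THP-1 DMSO arrays the 2 probe sets went opposite ways. On replicate 2 the first had a normalized log2 value of 10.40 and the second 10.95, against 11.15 and 10.79 on replicate 1. With diclofenac in THP-1 the first had 10.77 and 10.74, and the second 10.38 and 10.43, each below its own replicate 1 DMSO value.

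ANXA7, also called synexin, binds and fuses secretory membranes. It had 1631.7 and 1605.8 with diclofenac in THP-1, against 1650.9 and 1570.2 with DMSO, at a change of -0.11 ± 0.10 (-0.03 without THP-1 DMSO replicate 2). In HL-60 it had 2422 and 2430.9 with diclofenac, against 2136.3 and 2455.2 with DMSO, at a change of 0.06. The deposited intensities overlapped in both lines. A second probe set of ANXA7 gave -0.19 and 0.29 and correlated with the first at 0.955.

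ANXA11, which takes part in cell division and in tethering RNA granules to lysosomes, had 1839.8 and 1818.2 with diclofenac in THP-1, against 1664.9 and 1674.7 with DMSO. Here too the intensities did not overlap while the normalized values did, and the change was -0.01 (0.13 without THP-1 DMSO replicate 2). In HL-60 it had 2165 and 1955.3 with diclofenac, against 2105.9 and 2146.3 with DMSO, which overlapped at -0.07. A dimmer second probe set had changes of 0.37 in THP-1 and -0.11 in HL-60 and correlated with the first at 0.506, with 1 of its 8 values not above background. ANXA3, known from neutrophils, had 79.4 and 47.2 with diclofenac in THP-1, against 2.4 and 143.4 with DMSO, and 2.7 and 2 with diclofenac in HL-60, against 19.6 and 8.5 with DMSO. Only the first of these 8 values was above the background of its array, so no fold is given for either treatment comparison.

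With limma, 0 of the 8 members were called in HL-60, where 0.00836% of genes were, and 1 (ANXA2) had an unadjusted p under 0.05, as 4.5% of genes had. After normalization 3 members had both HL-60 diclofenac arrays higher (ANXA1, ANXA4 and ANXA6), against 21% of genes. In 2 members both were lower (ANXA2 and ANXA3), against 19.2%, but ANXA3 was above background on no HL-60 array, so its order is not a measured shift. The median of the 8 changes, that of ANXA3 included, was 0.04, beside 0.00 over all genes. For the difference between the lines' changes, limma called 0 of the 8, where 0% of genes were called, and 2 (ANXA1 and ANXA2) had an unadjusted p under 0.05, as 7.39% of genes had.

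Scaling moved the centre of all genes, so the changes are also set against it. Without quantile normalization the median gene changed by -0.16 in THP-1 and by -0.06 in HL-60, and with median centring by 0.20 in THP-1 and by 0.11 in HL-60. Relative to that median, the deposited scale gave ANXA1 a THP-1 change of 1.68, and ANXA2 one of 0.74 in THP-1 and of -0.14 in HL-60. The directions of ANXA1 and ANXA2 stayed as above under both scalings. Those of ANXA3, ANXA4, ANXA6, ANXA7 and ANXA11 in THP-1, and of ANXA5, ANXA7 and ANXA11 in HL-60, turned in 1 to 6 of the alternatives each.

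Between the lines, with DMSO, 4 members were lower in THP-1 and called (ANXA1, ANXA2, ANXA6 and ANXA7) and 0 were higher and called, where 9.31% of all genes were called lower. ANXA2 was 3.87-fold lower in THP-1 (log2 -1.95 ± 0.09), ANXA6 3-fold lower (-1.59 ± 0.14), ANXA1 2.53-fold lower (-1.34 ± 0.10) and ANXA7 1.33-fold lower (-0.41 ± 0.10). The 4 remained called without THP-1 DMSO replicate 2, at -2.01, -1.81, -1.40 and -0.51, where 18.6% of all probe sets were called. ANXA4 turned with the array left out: its difference was 0.38 without THP-1 DMSO replicate 2 and -0.37 without replicate 1. That of ANXA11 was -0.39 without replicate 2. Over the 8 arrays, the further probe sets of ANXA2 had -1.90 and -1.96 and were called. The second probe set of ANXA7 had -0.375 and was not called (limma adjusted p = 0.163). Nor were those of ANXA11 (-0.855) and ANXA4 (0.143). ANXA7 was the least firm of the 4 called members, since it passed in 7 of 20 alternatives, whereas ANXA1, ANXA2 and ANXA6 passed in all 20. Its call was lost when any THP-1 diclofenac, HL-60 diclofenac or HL-60 DMSO array was left out (-0.48 to -0.35). In those settings fewer of all probe sets passed as well.

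With diclofenac, 3 members were lower in THP-1 than in HL-60 and called (ANXA2, ANXA6 and ANXA7) and 0 were higher and called, where 7.62% of all genes were called lower. ANXA6 differed by -1.93 ± 0.14, ANXA2 by -1.19 ± 0.09 and ANXA7 by -0.59 ± 0.10, while ANXA1 differed by 0.00 ± 0.10. ANXA7 was no longer called when any of the 4 diclofenac arrays was left out (-0.59 to -0.57), where fewer of all probe sets passed as well. Over the 8 arrays its second probe set had -0.85 and was called (limma adjusted p = 0.0082), as were the further ones of ANXA2 (-1.16 and -1.22). Those of ANXA4 (-0.33) and ANXA11 (-0.38) were not called. ANXA5 was higher in THP-1 by 0.29 with no overlap, and ANXA4 and ANXA11 were lower by 0.20 and 0.19 with no overlap; none of these 3 was called. ANXA3 was above background on 1 THP-1 array and on no HL-60 array, so no fold is given, and it was not called (limma adjusted p = 0.0711). After normalization 2 members had both THP-1 arrays higher (ANXA5, and ANXA3 with the limit just given), against 30.7% of genes, and 5 had both lower, against 31.8%. With DMSO these were 1, against 26.8%, and 5, against 26%. The line comparisons use the same arrays as the diclofenac comparisons, so the 2 kinds of difference are not separate evidence.

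**Figure D3:**
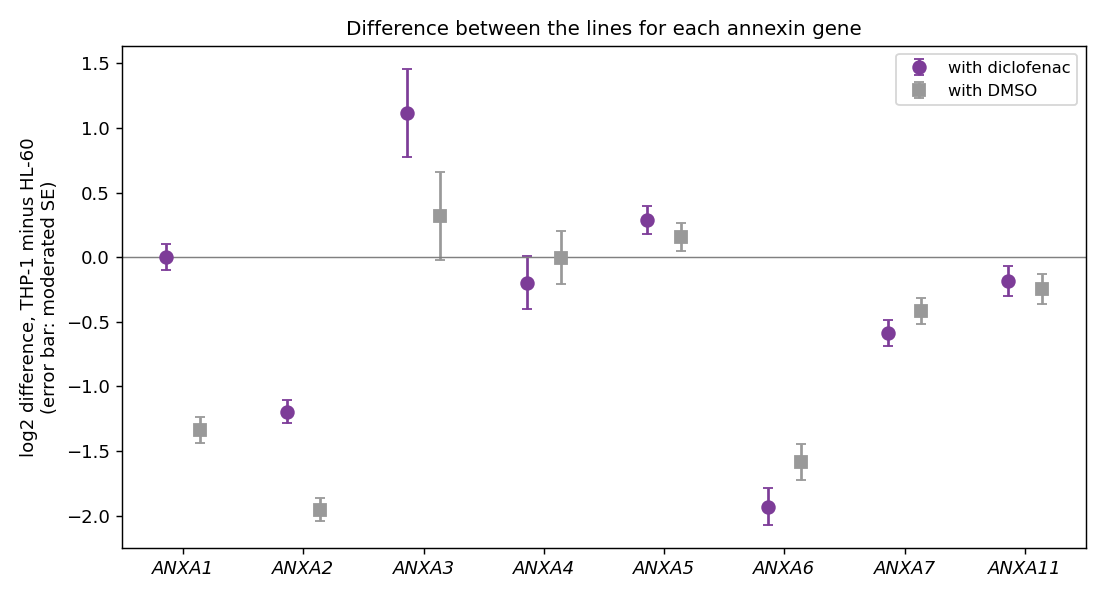
Difference between the lines (log2, THP-1 minus HL-60) of each annexin gene with diclofenac (circles) and with DMSO (squares), with moderated SE as error bars. ANXA1 stands at 0.00 with diclofenac and -1.34 with DMSO, and ANXA2 and ANXA6 are below -1 with both.

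The partners, receptors and pathways of the annexins were followed in 8 lists of other genes, chosen with earlier results known, of which 64 genes were measured. With diclofenac in THP-1 limma called 1 of the 64 upward and 0 downward, while 13 had an unadjusted p under 0.05, 12 of them with a higher value, where 11.8% of all genes had such a p. In HL-60 limma called 0, and 4 had an unadjusted p under 0.05, 3 of them with a higher value, where 4.5% of all genes had such a p.

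The gene called was S100A11, the S100 protein that binds the tail of ANXA1. It had 10572 and 10752.9 on the THP-1 diclofenac arrays, against 5328.4 and 4291.8 on the THP-1 DMSO arrays, and rose 1.95-fold (log2 0.96 ± 0.10, limma adjusted p = 0.0201). It was also called when THP-1 DMSO replicate 2 was left out (1.05). It passed in 10 of 21 alternatives and was lost, among others, with median centring, where 0 of 22215 probe sets passed. Leaving out either THP-1 diclofenac array (0.92 and 1.00) or either HL-60 DMSO array (0.97 each) also lost it, where hardly any probe set passed. In HL-60 S100A11 had 7939.3 and 10820.8 with diclofenac, against 6480.9 and 6840.1 with DMSO, and its change of 0.36 ± 0.10 did not pass. All 4 S100 partners had changes above 0 in THP-1, with a median of 0.42, and 1 of 4 was called. S100A10, the partner of ANXA2 and named after its values were seen, had 3952.8 and 3888.2 with diclofenac in THP-1, against 2731.5 and 1969.5 with DMSO, at 0.62 ± 0.12 and a limma adjusted p of 0.144 (0.55 without THP-1 DMSO replicate 2). In HL-60 S100A10 had a change of -0.06. With diclofenac S100A10 was higher in THP-1 than in HL-60 by 1.04 ± 0.12 (limma adjusted p = 0.000702), opposite in direction to ANXA2.

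None of the 3 formyl peptide receptors, on which ANXA1 acts, was called with diclofenac in either line. FPR2 had 142.7 and 124 with diclofenac in THP-1, against 49.9 and 125.5 with DMSO, the last not above background, at 0.81 ± 0.31 and a limma adjusted p of 0.43 (also 0.81 with THP-1 DMSO replicate 2 left out). FPR2 was lower in THP-1 than in HL-60, by 1.45 with diclofenac and by 1.93 with DMSO on the log2 scale, at limma adjusted p of 0.016 and 0.00357, and the second value was -1.98 with that array left out. The THP-1 change of FPR1 was -0.14, or 0.29 with THP-1 DMSO replicate 2 left out, and the HL-60 change was 0.17.

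Of 6 measured genes of the cell surface plasminogen system, which ANXA2 and S100A10 help to assemble, 0 were called with diclofenac. PLAUR, the urokinase receptor, came nearest in THP-1, with 2844.2 and 2860 against 1551.5 and 1421.7 with DMSO, a change of 0.79 ± 0.11 at a limma adjusted p of 0.0515. PLAUR was called in 7 of 21 alternatives, among them without THP-1 DMSO replicate 1 (0.74), where 31% of all probe sets were called, or replicate 2 (0.85), where 0.27% were, and its change in HL-60 was 0.07. For PLAU, urokinase itself, the THP-1 change was -0.27, or -0.15 with replicate 2 left out, and the HL-60 change 0.27.

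Of 9 measured glucocorticoid receptor targets and their receptor, 0 were called with diclofenac, although ANXA1 is counted among such targets. The kinase SGK1 had 333.5 and 430.9 with diclofenac in THP-1, against 146.5 and 73.3 with DMSO, at 1.76 ± 0.45, and 1.05 without THP-1 DMSO replicate 2. The phosphatase DUSP1 had 0.81 ± 0.51, and 1.56 without that array, where the THP-1 DMSO array left, at 18.9, was not above background. The list had a median of 0.21 in THP-1 and 0.10 in HL-60, and SGK1 and DUSP1 had -0.25 and -0.20 in HL-60.

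Of 9 measured phospholipases A2, which release the arachidonate that cyclooxygenases use and which ANXA1 was first thought to inhibit, 0 were called with diclofenac. PLA2G4A, the cytosolic enzyme, had 426.1 and 404.1 with diclofenac in THP-1, against 416.7 and 164.9 with DMSO, the last not above background. Its change of 0.91 was -0.05 without THP-1 DMSO replicate 2, and it had -0.06 in HL-60. The changes of PLA2G4C were 0.50 for THP-1, or 0.84 with that array left out, and -0.40 for HL-60. Neither THP-1 DMSO array (17.1 and 142.6) nor either HL-60 diclofenac array (43 and 9.9) was above background, so these are not measured folds.

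Of 14 measured genes that expose or recognise phosphatidylserine, the ligand of ANXA5, 0 were called with diclofenac, with medians of 0.14 in THP-1 and 0.02 in HL-60. The integrin chain ITGB3 had 0.61 and the scramblase PLSCR1 0.56 in THP-1, or 0.74 and 0.56 with THP-1 DMSO replicate 2 left out, and they had -0.26 and -0.10 in HL-60. Between the lines with DMSO, 4 of the 14 were higher in THP-1 and called and 1 was lower and called, where 9.28% of all genes were called higher and 9.31% lower. Among them, and named after their values were seen, ITGAV was higher in THP-1 by 0.96 and TMEM30A by 1.02, at limma adjusted p of 0.0151 and 0.000462 (1.01 and 0.99 with replicate 2 left out).

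Of 13 measured genes of calcium-triggered membrane repair, in which several annexins take part, 0 were called with diclofenac. The THP-1 change of DYSF, dysferlin, was 1.25 ± 0.41 and became 0.58 when THP-1 DMSO replicate 2 was left out, and in HL-60 the value was -0.28. For EHD1 the THP-1 change was 0.91, or -0.02 when that array was left out, and the HL-60 change was 0.14. Between the lines with DMSO, 4 were lower in THP-1 and called and 2 were higher and called, beside the same 9.31% and 9.28% of all genes. AHNAK, a large scaffold that binds the complex of ANXA2 and S100A10, named after its values were seen, was lower in THP-1 by 1.94 on the log2 scale (limma adjusted p = 0.00581; -1.40 with replicate 2 left out), in the same direction as ANXA2.

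**Figure D4:**
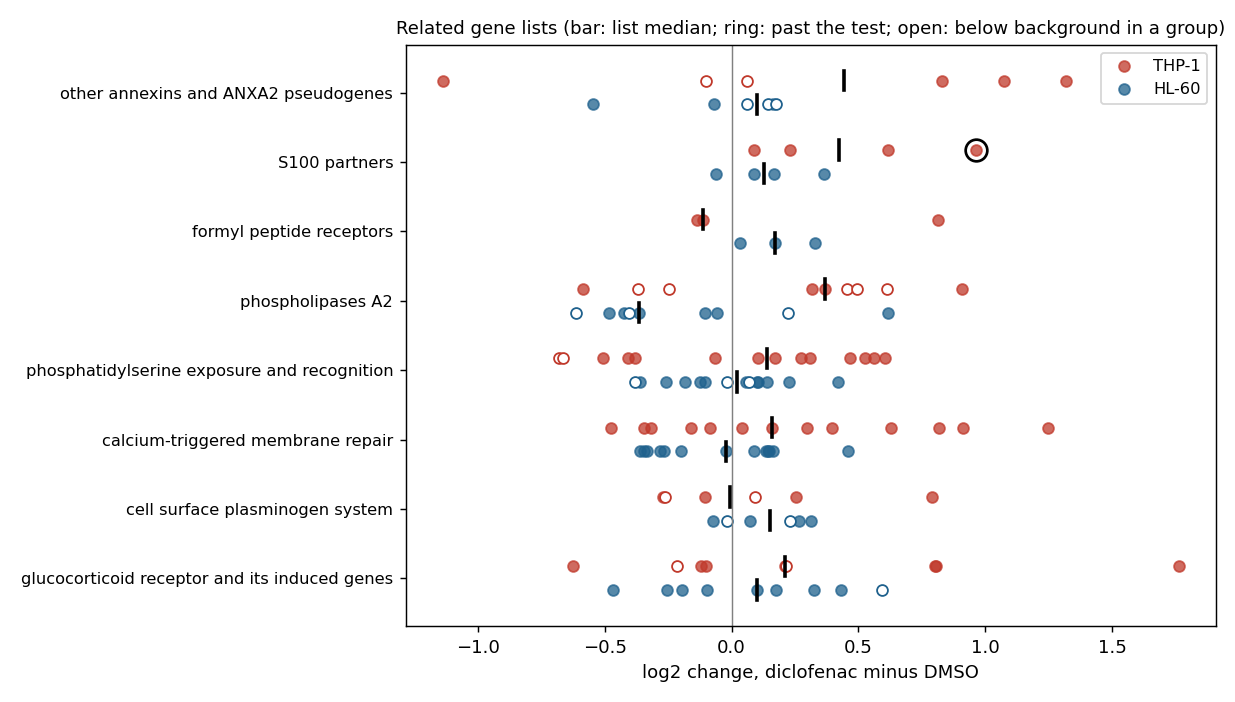
Diclofenac change (log2, diclofenac minus DMSO) of every measured gene of the 8 related lists in both lines, with bars for list medians, a ring for a gene past the test and open symbols for genes below background in a group. S100A11 in THP-1, at 0.96, is the only ringed point.

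The other annexins on the array were ANXA9, ANXA10 and ANXA13, and limma called 0 of them with diclofenac in either line. The THP-1 change of ANXA9 was 0.83, or 0.28 when THP-1 DMSO replicate 2 was left out, that of ANXA13 was -1.14, or -0.30 when it was left out, and ANXA10 was above background on none of the 8 arrays. ANXA8 and its copies share a probe set with several symbols and were not analysed here.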

How the data were processed

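Total RNA of THP-1 and HL-60 cells was labelled as biotin cRNA on Affymetrix human arrays, per the labels' protocols, and 8 arrays in 4 groups of 2 were used. The intensity per probe set was taken as deposited by the authors, and from the values it is linear, with a mean without the highest and lowest 2% of 500.1 to 500.2 on each array. The software behind it is not given in the sources used here. No array was centred on others. Intensities plus 50 were put on the log2 scale and quantile normalized, 62 control probe sets were left out, and 22215 were tested with limma 3.58.1 in R 4.3.3 (4 group means on all 8 arrays, 4 residual and 4.41 prior degrees of freedom, intensity trend, Benjamini-Hochberg adjustment within each contrast, threshold 0.05). Of these, 19064 had 1 gene symbol, 1043 several and 2108 none listed, in an annotation that can be old; symbols were updated through gene IDs to RefSeq (GRCh38.p14). Probe sets of the kinds that may bind several transcripts represent a gene only where it has no other, as for 462 genes. A probe set not above background on any array of a group has no measured fold against that group.

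The members, the lists, the motifs and the rule for named genes were chosen with earlier results of these data known. That rule named all members and every further probe set of theirs, the other annexins, list genes called with diclofenac or else the 2 with the largest THP-1 change above background, and the 5 genes most like ANXA1. Alternatives were the deposited scale, median centring, no trend, an offset of 16, no offset, leaving out the dimmest 40%, a replicate block, each line alone, averaging the probe sets of a gene, a minimum log2 change of 1 and each array left out, plus 3 chosen after seeing the data that left out THP-1 DMSO replicate 2 under another scaling or weighted arrays by the scatter of their group. The method was tested on 5 simulated sets of 22215 probe sets with known log2 changes added. In THP-1 it called 38, 107, 168 and 210 of 250 added changes of 0.5, 1, 1.5 and 2. It also made 195 false calls there over the 5 sets. In HL-60 it called 25, 99, 156 and 210 of 250, with 2 false calls. Calls in THP-1 with diclofenac are therefore less certain than their adjusted p states. Python 3.11.15 with matplotlib 3.10.9 made the figures.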

Additional observations from a re-analysis of the deposited data

Results flagged for a closer look

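ANXA2 shifted in opposite directions in the 2 lines. Both THP-1 diclofenac arrays were higher than both THP-1 DMSO arrays, as for 19.4% of all genes. Both HL-60 diclofenac arrays were lower than both HL-60 DMSO arrays, as for 19.2% of all genes. With median centring the HL-60 change was only -0.03. All probe sets of ANXA2 may bind several transcripts, so signal from its pseudogenes cannot be told apart. The difference between the 2 log2 changes was 0.76 ± 0.13 (SE). It is a description, since the gene was chosen with results known, and it did not pass limma over all probe sets. Without THP-1 DMSO replicate 2 it was 0.81 and did not pass. Without THP-1 DMSO replicate 1 it was 0.71 and passed, as did 18.2% of all probe sets.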

How the results depend on the processing

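With THP-1 and diclofenac, limma called 1 annexin gene, but 0 with median centring, without the intensity trend and with each line fitted alone, where 0 of 22215 probe sets passed. Leaving out either THP-1 diclofenac array also lost the call of ANXA1, where hardly any probe set passed. Leaving out THP-1 DMSO replicate 1 added ANXA2, ANXA4 and ANXA6, where a large share of all probe sets passed. For the difference between the lines' changes, 0 were called, 0 to 3 with 1 array left out (3 without THP-1 DMSO replicate 1, where 18.2% of all probe sets passed, 1 without replicate 2) and 1 without THP-1 DMSO replicate 2 on the deposited scale. Between the lines with diclofenac, 3 members were called, where 2892 of 22215 probe sets were. With median centring 1 was, where 1028 probe sets were, and with arrays weighted by the scatter of their group 5 were, where 5762 were. Between the lines with DMSO, 4 members were called, where 3396 probe sets were. With 1 array left out the counts for both line comparisons moved, and so did the share of all probe sets called. The cause was not tested, beyond that a group left with 1 array is assumed to vary like the others. In HL-60 the count was 0 throughout. The 811 recomputed changes of single members cover reported values that were called and values that were not. Among the called ones, 26 lost the call and 0 turned direction. Among those not called, 116 moved by at least the standard deviation within groups. Alternatives that alter only the test leave the change as it was, so they could not turn it. ANXA4 between the lines with DMSO, not called over the 8 arrays, was -0.37 without THP-1 DMSO replicate 1 and 0.38 without replicate 2. Deviations of same-numbered arrays correlated at -0.01 (THP-1) and -0.00 (HL-60). This cannot settle whether replicate numbers pair the arrays, since with 2 arrays a group each deviation also holds the scatter of the single arrays. With the replicate block the counts were 1, 0, 0, 3 and 3, the last for the lines with DMSO, against 4 without it, where ANXA7 no longer passed. Over all probe sets, 30 were called in THP-1 with diclofenac, 51 on the deposited scale and 0 with median centring. ANXA3 fell out with the dimmest 40% left out.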

Other observations

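The 5 genes whose log2 values followed ANXA1 most closely over the 8 arrays, among 9320 genes above background on all arrays of at least 1 group, were PHC2 (r = 0.98), PRDM1 (0.97), ACSL1 (0.97), C5AR1 (0.97) and OPTN (0.96). The 8 arrays are 4 groups of 2, so the coefficients mostly describe how 4 group means lie and carry no p. THP-1 with DMSO was the lowest group for all 5, as for ANXA1, while the order of the other groups was not always that of ANXA1. In THP-1 these genes had diclofenac changes of 0.54 for PHC2, 1.34 for PRDM1, 1.12 for ACSL1, 1.42 for C5AR1 and 1.04 for OPTN, beside 1.49 for ANXA1. In HL-60 they had -0.12 to 0.28. Without THP-1 DMSO replicate 2 they ranked 8, 12, 9, 15 and 18 over 7 arrays, with r of 0.94 to 0.96. Among the annexins themselves, ANXA2 followed ANXA6 at 0.93 and ANXA7 at 0.89, and ANXA1 followed ANXA2 at 0.67 (0.55 over 7 arrays).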
